A study of Macaca mulatta with 28 samples.

Results

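Neurotrophins and glial cell line-derived neurotrophic factor (GDNF) are secreted proteins that keep neurons alive and shape their terminals. Of 16885 genes with a symbol in the count table, 9 were chosen by symbol: the ligands BDNF, NTF3 and GDNF, and the receptors NTRK2, NTRK3, NGFR, RET, GFRA1 and GFRA2. They were described in ventral tegmental area (VTA) tissue of 28 adult male rhesus macaques, sequenced in bulk with 1 library per animal. The 17 drinkers had learned to take ethanol under schedule-induced polydipsia, then had about a year of daily open access and repeated cycles of forced abstinence and renewed access. The 11 controls were calorically yoked or housing controls without ethanol. Tissue was taken from the drinkers after 30 days of abstinence. By drinking category the drinkers were 1 low, 2 binge, 5 heavy and 9 very heavy. Cohort 1 held 8 controls and 8 drinkers (1 low, 4 heavy and 3 very heavy), and cohort 2 held 3 controls and 9 drinkers (2 binge, 1 heavy and 6 very heavy).

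BDNF signals through the receptor tyrosine kinase TrkB, the product of NTRK2, and NT-3, the product of NTF3, signals mainly through TrkC, the product of NTRK3. NGFR encodes p75, a receptor shared by all neurotrophins and their uncleaved precursors. GDNF binds GFRA1, a co-receptor anchored in the membrane by a lipid, and the pair activates the receptor tyrosine kinase RET; GFRA2 serves the related ligand neurturin in the same way. Midbrain dopamine neurons are known to carry RET and GFRA1, and striatal cells supply much of the GDNF that they meet. Tyrosine hydroxylase, encoded by TH, is the rate-limiting enzyme of dopamine synthesis and marks these neurons.

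The table held 1 Ensembl transcript for each gene, so counts given to other transcripts of the gene were not part of its value. Library totals ran from 12303914 to 27338669 counts, and transcripts of the mitochondrial genome held between 36.4% and 60.6% of them. As a check of the labelled tissue, TH was counted in 28 of 28 animals, with 83 counts at the lowest, a median of 2180 and 18843 at the highest. Of the other dopamine neuron markers, ALDH1A1 was at 0 in 7 animals, NR4A2 and LMX1A in 6 each, PITX3 and LMX1B in 2 each and EN1 in 1. In counts per 1000000 of the library total after its scaling by edgeR's TMM factor (CPM), TH spanned 148-fold between the lowest and the highest animal, and SLC6A3, the dopamine transporter, spanned 131-fold. The 13 dopamine neuron markers summed to between 37.2 and 1714 CPM in cohort 1 controls, 41.0 and 1624 in cohort 1 drinkers, 109 and 1633 in cohort 2 controls, and 35.5 and 1200 in cohort 2 drinkers. In bulk tissue, fewer cells of a type and less RNA per cell cannot be told apart. A transcript was tested if it had at least 5 counts in at least 3 animals, which 13769 transcripts and 8 of the 9 genes did; GDNF did not.

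The ligands were at or near the limit of detection. In the RefSeq annotation of Mmul_10, GDNF lies on chromosome 6 from 37664534 to 37692642, NTF3 on chromosome 11 from 5563736 to 5627915, and BDNF on chromosome 14 from 37727375 to 37797626. GDNF was listed at 0 in 26 of 28 animals, and its only counts were 10 in control 1 and 9 in control 6, both of cohort 1. At these depths a count of 0 allows up to 3 counts, or between 0.112 and 0.238 CPM depending on the library, and these limits cover counting error only. NTF3 was at 0 in 18 animals. Its highest counts were 31 in control 6, 11 in control 9 and 8 in heavy 2, and 4 of 11 controls and 6 of 17 drinkers had any count. BDNF was at 0 in 9 animals, 2 of 11 controls and 7 of 17 drinkers, with a median of 8 counts in either group. The 2 binge drinkers had 55 and 35 BDNF counts, and the highest count, 61, was in very heavy 3, while 3 of 5 heavy drinkers were at 0. Controls and drinkers overlapped over the whole control range, which reached 36. In CPM 5 drinkers lay above the highest control at 1.56: very heavy 3, 7 and 1 at 2.97, 2.39 and 1.68, and the binge drinkers at 2.18 and 1.59.

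GFRA2, on chromosome 8 from 21861512 to 21960755, was counted in 3 animals, all of cohort 1: 19 in control 1, 25 in very heavy 1 and 24 in very heavy 2. All 12 animals of cohort 2 were at 0. No fold change is given for GDNF, NTF3 or GFRA2, whose fitted values rest on these few animals.

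The neurotrophin receptors were counted in all 28 animals. NTRK2 had 83 counts at the lowest, a median of 194 and 543 at the highest in controls, and 28, 234 and 549 in drinkers. NTRK3, on chromosome 7 from 66645145 to 67034967, had 24, 124 and 168 in controls and 32, 95 and 192 in drinkers. NGFR, on chromosome 16 from 47276730 to 47296964, had 6, 26 and 53 in controls and 11, 28 and 82 in drinkers. For each of them the ranges of controls and drinkers overlapped. The highest count was in very heavy 4 for NTRK2, very heavy 8 for NTRK3 and heavy 2 for NGFR, and the highest CPM in very heavy 8 for NTRK2 and NTRK3 and very heavy 2 for NGFR. In CPM the 28 animals spanned 13.3-fold for NTRK2, 6.30-fold for NTRK3 and 11.7-fold for NGFR.

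RET, on chromosome 9 from 43802318 to 43855382 on the plus strand of Mmul_10, varied most widely among the genes that were detected in every animal. In the 11 controls it had 137 counts at the lowest, a median of 661 and 3896 at the highest, and in the 17 drinkers 185, 546 and 3872. Both groups thus covered nearly the same range, which in CPM was 16.5-fold from the lowest to the highest animal. The upper end in drinkers rested on heavy 2 alone, and the next highest drinker, very heavy 3, had 1774 counts. The animals high in RET were those high in TH. The 5 animals with the lowest TH in CPM had 123, 83, 92, 186 and 411 TH counts, and in the same order 260, 190, 137, 187 and 462 RET counts. The 5 animals with the highest TH had 12148, 13659, 16636, 17780 and 18843 TH counts and 2370, 1231, 3110, 3872 and 3896 RET counts. The 3 animals highest in TH were also the 3 highest in RET, and they were 2 controls (control 3 and control 5) and 1 drinker (heavy 2), all of cohort 1.

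The question of whether each gene moved with TH was put to a fit of every transcript on the log2 CPM of TH, with drinker or control as a covariate. The level of TH RNA is not a measure of the number of dopamine neurons. RET rose by 0.49 on the log2 scale for each log2 unit of TH (SE 0.04; 95% interval 0.41 to 0.57; edgeR quasi-likelihood adjusted p = 3.75e-09). This was the fifth lowest p among 13768 transcripts, after DDC, SLC6A3, SLC18A2 and SLC10A4. Over all transcripts 0.494% passed the threshold and 6.53% had an unadjusted p under 0.05, while of the 8 genes tested 1, RET, passed and 3 had an unadjusted p under 0.05. These 3 were RET and GFRA1, which rose with TH, and GFRA2, which fell. GFRA2 passed the count filter only through the 3 animals in which it was counted, so its p is not read as a relation to TH. The slope was 0.48 in controls alone (SE 0.06; adjusted p = 0.0111; 0.167% of all transcripts called, 9.3% at an unadjusted p under 0.05) and 0.50 in drinkers alone (SE 0.05; adjusted p = 0.000116; 0.123% called, 5.21% at an unadjusted p under 0.05), with cohort as a covariate in both fits. The slopes of drinkers and controls differed by 0.05 (95% interval -0.11 to 0.21), with an edgeR adjusted p of 1 and a background of 0% called and 4.81% at an unadjusted p under 0.05. SLC6A3 had a slope of 1.03 (SE 0.06) and DDC, the enzyme after TH, 0.98 (SE 0.05).

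The correlation of RET with TH was similar in every set of animals. Over all 28 animals Pearson's r was 0.898 and Spearman's rho 0.908, each with a two-sided permutation p of 1e-05, the smallest that 100000 permutations can give (adjusted p = 0.00011 and 8.25e-05 over 33 correlations of members with TH). Without the 2 animals farthest from the median of TH, r was again 0.898. Within cohort 1 r was 0.917 (permutation p = 1e-05, adjusted p = 0.00011) and within cohort 2 it was 0.914 (permutation p = 2e-05, adjusted p = 0.000165). Within controls r was 0.907 (permutation p = 0.00073, adjusted p = 0.00401) and within drinkers 0.915 (permutation p = 1e-05, adjusted p = 0.00011).

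**Figure D1:**
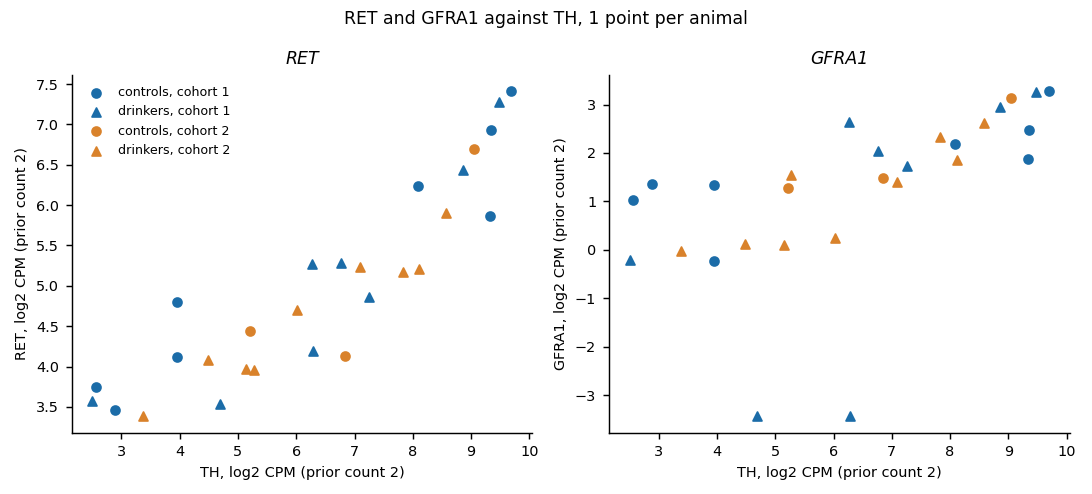
RET (left) and GFRA1 (right) against TH, all in log2 CPM with a prior count of 2, with 1 point per animal, controls as circles, drinkers as triangles and color marking the cohort. RET rises with TH in both groups and both cohorts (r = 0.898, n = 28), and the 2 animals at the bottom of the GFRA1 panel, heavy 1 and very heavy 1, had a GFRA1 count of 0.

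GFRA1, on the same chromosome from 116549359 to 116771215 on the minus strand, is the co-receptor that hands GDNF to RET. It had 18 counts at the lowest, a median of 65 and 220 at the highest in controls, and 0, 62 and 235 in drinkers. The groups overlapped, and the 0 counts were in heavy 1, which had 1912 TH counts, and very heavy 1, which had 412. The highest GFRA1 counts, 235, 220 and 199, were in heavy 2, control 5 and control 10, which also stood among the 5 animals highest in TH. The slope of GFRA1 on TH was 0.40 (SE 0.11; 95% interval 0.19 to 0.62), with an edgeR adjusted p of 0.103, which missed the threshold; the DESeq2 Wald test gave 0.40 with an adjusted p of 0.00463, and the adjusted p ran from 0.00463 to 0.199 over the alternatives. In controls the slope was 0.29 (SE 0.07) and in drinkers 0.56 (SE 0.20), with edgeR adjusted p of 0.281 and 0.757, and the difference between these slopes was 0.28 (95% interval -0.13 to 0.70; adjusted p = 1).

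By correlation GFRA1 followed TH over 28 animals with r = 0.588 (permutation p = 0.00063, adjusted p = 0.00401) and rho = 0.814 (permutation p = 1e-05, adjusted p = 8.25e-05), and r was 0.603 without the 2 animals farthest from the median of TH. Within controls r was 0.797 (permutation p = 0.00187, adjusted p = 0.00882), within drinkers 0.618 (permutation p = 0.00764, adjusted p = 0.0315; with a prior count of 0.5, r = 0.533 and adjusted p = 0.111) and within cohort 1 0.519 (permutation p = 0.0369, adjusted p = 0.135), where rho was 0.751 (permutation p = 0.00112, adjusted p = 0.00462). In cohort 2 the GFRA1 values fell into separate clusters, 4 animals with 16 to 25 counts and 8 with 56 to 199, and no r was computed. RET and GFRA1 also followed each other, with r = 0.696 over 28 animals (permutation p = 4e-05, adjusted p = 0.00124 over 31 correlations between members) and r = 0.695 in cohort 1 (permutation p = 0.00146, adjusted p = 0.0226).

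RET moved with TH, so the 250 bases before the RefSeq gene starts of both in Mmul_10 are shown. The windows were searched on both strands for AAAGGTCA, the element bound by the dopamine neuron factor NR4A2, for TGACGTCA, the element bound by CREB, and for TATAAA, the core of the TATA box, and a match would stand in capitals. The Ensembl transcript counted may start elsewhere than the RefSeq gene.
RET, chr9:43802068-43802317, plus strand: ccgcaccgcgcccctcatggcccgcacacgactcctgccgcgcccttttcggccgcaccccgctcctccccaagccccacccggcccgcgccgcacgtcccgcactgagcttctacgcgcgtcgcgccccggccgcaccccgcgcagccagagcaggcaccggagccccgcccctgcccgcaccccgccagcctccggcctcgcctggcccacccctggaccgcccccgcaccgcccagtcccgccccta
TH, chr14:2232218-2232467, minus strand: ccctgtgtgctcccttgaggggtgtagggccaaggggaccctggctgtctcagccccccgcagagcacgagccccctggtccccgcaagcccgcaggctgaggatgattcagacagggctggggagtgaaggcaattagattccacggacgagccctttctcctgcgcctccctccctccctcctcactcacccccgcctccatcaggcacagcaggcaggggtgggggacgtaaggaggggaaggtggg
The RET and TH windows held none of these motifs. Sequence outside these 250 bases was not searched, so the result does not show that either gene lacks them. Of 20782 such windows of protein-coding genes, 0.938% held AAAGGTCA, 1.47% held TGACGTCA and 9.85% held TATAAA, so the absence of these letters is the usual case. The RET window was 80.0% G and C and that of TH 66.8%, beside a median of 57.2% over all windows.

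The neurotrophin receptors had slopes on TH near 0. NTRK2 had a slope on TH of 0.06 (SE 0.08), NTRK3 of -0.01 (SE 0.06), NGFR of 0.04 (SE 0.08) and BDNF of 0.09 (SE 0.20), each with an edgeR adjusted p of 1. Their intervals were -0.10 to 0.22 for NTRK2, -0.13 to 0.12 for NTRK3, -0.12 to 0.19 for NGFR and -0.31 to 0.50 for BDNF; the upper bounds for NTRK2, NTRK3 and NGFR lay below the lower bound for RET. Pearson's r with TH over 28 animals was 0.131 for NTRK2, -0.04 for NTRK3, 0.06 for NGFR, 0.07 for BDNF and 0.07 for NTF3, with adjusted permutation p between 0.837 and 0.909. Of the 12 other dopamine neuron markers, 7 passed in the same fit, all rising with TH: DDC, SLC6A3, SLC18A2, EN1, PITX3, KCNJ6 and LMX1B. The rest did not pass: ALDH1A1, NR4A2, FOXA2, FOXA1 and LMX1A, with r with TH of 0.06, 0.16, 0.16, 0.43 and 0.47. The slope of RET lay below those of the transcription factors PITX3 (0.82, SE 0.11) and EN1 (0.78, SE 0.09) and above that of the potassium channel subunit KCNJ6 (0.22, SE 0.05). None of the 35 tested markers of other cell types passed by edgeR, and 4 had an unadjusted p under 0.05, beside 6.53% of all transcripts: GAD1 of GABA neurons (slope -0.11, SE 0.05), CNP of oligodendrocytes (slope -0.06, SE 0.03), and the microglial genes AIF1 (slope 0.10, SE 0.04) and C1QB (slope 0.06, SE 0.03). GJA1 (astrocytes), CSF1R (microglia), CLDN5 (endothelium), SLC17A6 (glutamate neurons), CSPG4 (oligodendrocyte precursors) and HTR1A (listed for serotonin neurons), each the most counted marker of its list, had r with TH of 0.18, 0.18, -0.20, -0.37, 0.02 and -0.40. Over the tested markers of each list r ran from 0.07 to 0.33 for astrocytes, 0.18 to 0.52 for microglia, -0.26 to 0.00 for endothelium and pericytes, -0.37 to 0.21 for glutamate neurons, -0.45 to 0.03 for GABA neurons, -0.36 to 0.34 for oligodendrocytes, 0.02 to 0.19 for their precursors and -0.40 to 0.29 for serotonin neurons.

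The transcripts whose values were most like those of RET over the 28 animals, among 8328 at 0 in no animal, were WNT7B (r = 0.909), SLC10A4 (r = 0.909) and FRMPD1 (r = 0.903). Those most like GFRA1 were CELSR1 (r = 0.776), SLC10A4 (r = 0.760) and MPPED2 (r = 0.758). SLC10A4, a transporter-like protein of synaptic vesicles, thus stood in both sets. NTRK2 was most like PIK3R1 (r = 0.804), MAGI1 (r = 0.804) and N4BP3 (r = 0.773), NTRK3 most like MED13L (r = 0.668), DNTTIP1 (r = 0.643) and ARHGEF10L (r = 0.626), and NGFR most like NTN4 (r = 0.676), CCNI (r = 0.666) and SPRING1 (r = 0.647). Among the sparse genes the matches were NUBP2 (r = 0.634), QTRT1 (r = 0.602) and RFXANK (r = 0.591) for BDNF, SLAIN2 (r = 0.524), NEK2 (r = 0.519) and TMA16 (r = 0.513) for NTF3, and TMA7 (r = 0.682), THOC6 (r = 0.615) and STK40 (r = 0.612) for GFRA2. These r values were each the highest among 8328 or 8329 transcripts and share the 28 libraries, and they are given as a description.

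Whether a history of drinking and abstinence changed these genes was tested by comparing drinkers with controls, and none of the 8 passed the threshold, nor had any an unadjusted p under 0.05. Over all transcripts 0% passed by edgeR and 4.57% had an unadjusted p under 0.05; the DESeq2 Wald test called 8 transcripts, none of them a member. The log2 difference, drinkers minus controls, was -0.61 for RET (SE 0.45; 95% interval -1.53 to 0.30) and -0.32 for GFRA1 (SE 0.58; -1.50 to 0.86), and -0.78 for TH (SE 0.72; -2.25 to 0.70). With TH as a covariate, the difference for RET was -0.42, with an unadjusted p of 0.0314 and an edgeR adjusted p of 0.978. NTRK2 had a difference of 0.19 (SE 0.34; -0.50 to 0.88), NTRK3 of -0.10 (SE 0.27; -0.65 to 0.44), NGFR of 0.17 (SE 0.34; -0.53 to 0.87) and BDNF of 0.43 (SE 0.98; -1.58 to 2.45). With cohort as a covariate the NTRK2 difference turned to -0.10. The adjusted p was 1 for each gene, and the intervals for BDNF, RET, GFRA1 and TH reach past 1 log2 unit in at least 1 direction.

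The same comparison within each cohort gave no call among the 8 genes (edgeR adjusted p from 0.856 to 1 in cohort 1, where 0.0363% of transcripts passed, with 11.6% at an unadjusted p under 0.05, and 1 in cohort 2, where 0% passed and 3.97% had an unadjusted p under 0.05). NTRK3 differed by -0.40 (SE 0.39) in cohort 1 and 0.33 (SE 0.38) in cohort 2, and NGFR by 0.46 (SE 0.54) and -0.29 (SE 0.43). The cohort 2 value of NTRK3 was 0.16 without control 10 and 0.53 without control 11, and that of NGFR was -0.56 without control 9 and 0.00 without control 10. The difference of the drinker effect between cohorts was 0.72 for NTRK3 (95% interval -0.49 to 1.94; adjusted p = 0.819) and -0.75 for NGFR (-2.26 to 0.76; adjusted p = 0.889), with 0.0145% of transcripts called and 9.62% at an unadjusted p under 0.05. RET differed by -0.33 (SE 0.64) in cohort 1 and -0.74 (SE 0.55) in cohort 2. The cohort 2 value rested on 1 of its 3 controls: these had 373 (control 9), 2370 (control 10) and 522 (control 11) RET counts, and without control 10, which had 12148 TH counts, the difference was 0.53. GFRA1 differed by 0.03 (SE 0.89) in cohort 1 and -0.78 (SE 0.63) in cohort 2, which became 0.07 without control 10.

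**Figure D2:**
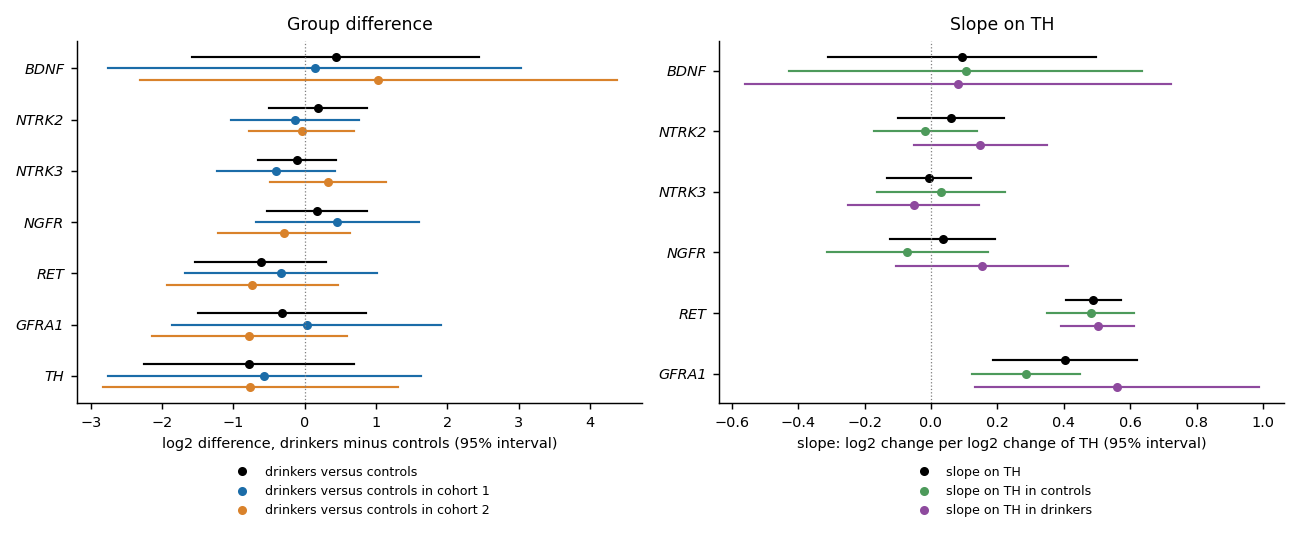
Left, log2 difference between drinkers and controls over all animals and within each cohort for the 6 genes counted in most animals and TH, as points with 95% intervals derived from the edgeR fits. Right, the slope of each gene on the log2 CPM of TH over all animals, in controls and in drinkers. All intervals on the left cross 0, and on the right RET and GFRA1 lie above 0 in each set while the others cross 0.

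Between drinking categories, with cohort as a covariate, no member passed in very heavy drinkers against controls (edgeR adjusted p from 0.896 to 0.995), in heavy drinkers against controls (0.76 to 0.998) or in very heavy against heavy drinkers (0.774 to 0.999), and 0% of all transcripts passed in each, with 6.86%, 7.09% and 6.23% at an unadjusted p under 0.05. RET counts were 260, 347, 449, 904 and 3872 in the 5 heavy drinkers, and in the 9 very heavy drinkers 185 at the lowest, a median of 743 and 1774 at the highest. The heavy drinker with 3872 counts, heavy 2, decided the comparison: very heavy minus heavy was -0.10 (SE 0.73) with it and 0.94 without it. The low drinker had 546 RET counts and the 2 binge drinkers 424 and 793, inside the range of the controls. BDNF differed by 2.73 (SE 1.67; 95% interval -0.70 to 6.17; adjusted p = 0.901) between very heavy and heavy drinkers, on counts of 0, 0, 0, 3 and 18 in the heavy animals and a median of 10 in the very heavy. Without heavy 3 the difference was 5.0.

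NTRK2 showed a wide split among very heavy drinkers along cohort lines. In cohort 1 the 3 very heavy drinkers had 28, 39 and 96 counts, the 4 heavy drinkers 158 to 365 and the controls 83 to 291. In cohort 2 the 6 very heavy drinkers had 137 to 549, the 1 heavy drinker 220 and the controls 287, 296 and 543. In CPM the very heavy drinkers of cohort 1 had 1.75 to 4.99, and those of cohort 2 had 7.58 to 23.1. This split was noticed in the values and was not tested by itself. The share of all transcripts that split these few animals in the same way was not computed. Over both cohorts very heavy minus heavy was -0.79 (SE 0.47; 95% interval -1.75 to 0.17; adjusted p = 0.891) with the cohort term and 0.23 without it, and very heavy minus control was -0.50 (SE 0.38; adjusted p = 0.896) with it and 0.26 without it.

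**Figure D3:**
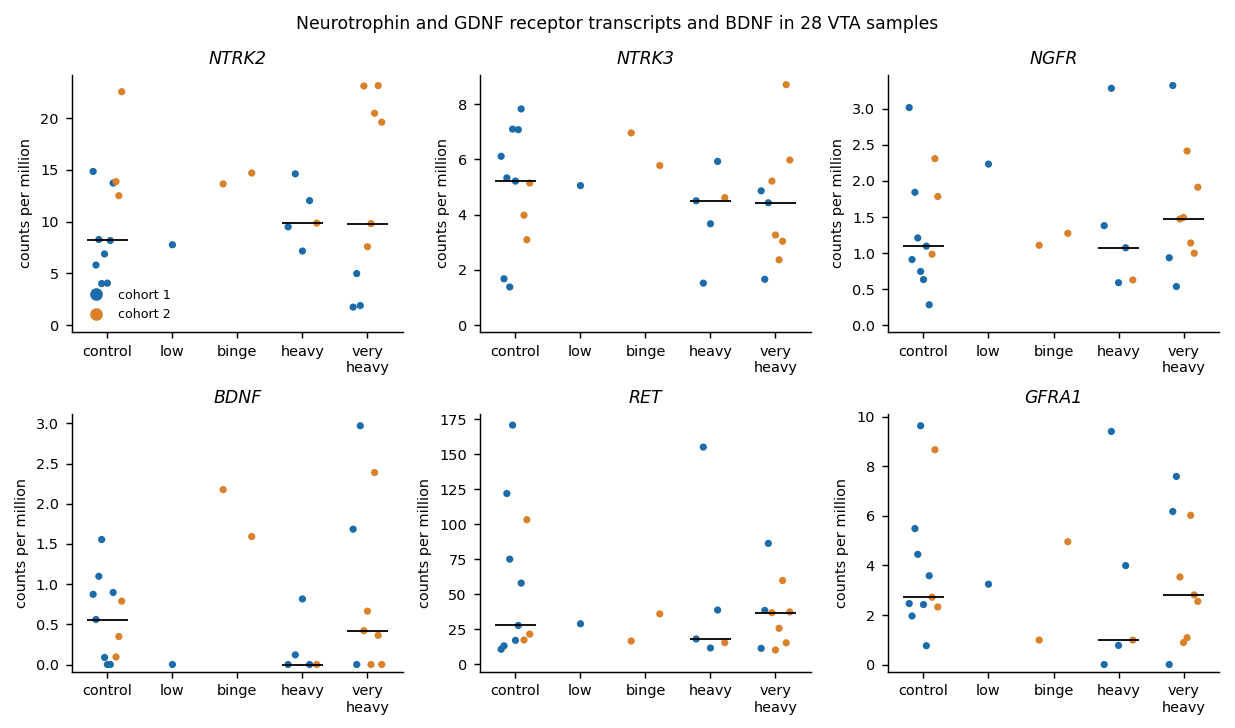
CPM of 6 genes in each of the 28 animals by drinking category, 1 point per animal, colored by cohort, with a black line at the median of groups of 5 animals or more. Controls, heavy and very heavy drinkers overlap for every gene, and the median of NTRK2 is 7.47 CPM in cohort 1 and 14.3 in cohort 2.

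Cohort was also compared, with drinker or control as a covariate, on the same animals in which the NTRK2 split was seen, so its p for NTRK2 is not independent of that observation. NTRK2, on chromosome 15 from 99990494 to 100359555, had 28 counts at the lowest, a median of 158 and 365 at the highest in the 16 animals of cohort 1, and 137, 334 and 549 in the 12 of cohort 2. The cohorts overlapped, and the log2 difference of NTRK2, cohort 2 minus cohort 1, was 1.05 (SE 0.29; 95% interval 0.46 to 1.63). The unadjusted p was 0.00101 and the edgeR adjusted p 0.158, which missed the threshold and ran from 0.0519 to 0.16 over the alternatives. No member passed, where 0.0436% of all transcripts did and 9.8% had an unadjusted p under 0.05. Of the 8 members, NTRK2 and GFRA2 had an unadjusted p under 0.05. GFRA2 passed the count filter only through 3 animals of cohort 1, so its p is not read as a cohort difference. RET had -0.65 (SE 0.46), GFRA1 -0.27 (SE 0.59), NTRK3 0.13 (SE 0.29), NGFR -0.01 (SE 0.35) and BDNF -0.01 (SE 0.99), with adjusted p from 0.728 to 0.998. Of the 35 tested markers of other cell types 9 had an unadjusted p under 0.05 and 0 passed by edgeR. They were 4 of astrocytes, 2 of oligodendrocytes and 1 each of GABA neurons, glutamate neurons and oligodendrocyte precursors, the last with the lowest adjusted p (0.105). Of the 5 astrocyte markers tested, 3 had an unadjusted p under 0.05 higher in cohort 2 and 1 lower; the list summed to between 906 and 1675 CPM in cohort 1 controls, 825 and 1540 in cohort 1 drinkers, 991 and 1071 in cohort 2 controls and 1057 and 1724 in cohort 2 drinkers. Its defining markers SLC1A2, ALDH1L1 and AQP4 were at 0 in 28, 26 and 18 animals. The part of these markers in the NTRK2 difference was not tested.

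The wider pathway was read from 94 further genes: other ligands and receptors of both families, other trophic factors for midbrain neurons, enzymes that cleave the precursors, and the kinases and adaptors that act after Trk and RET receptors. Of these, 80 were tested. In drinkers against controls 0 passed in either direction, and 1 (1.25%) had an unadjusted p under 0.05, beside 4.57% of all transcripts: CPE, carboxypeptidase E, which also sorts BDNF precursor into secretory granules, at 0.24 (SE 0.08; edgeR adjusted p = 0.553). The next lowest p was that of MAP2K2, a kinase of the MAPK cascade, which was at 0 in 21 animals. The median difference was 0.03 over the 12 tested neurotrophin ligands, receptors and partners, -0.09 over the 11 of the GDNF family, 0.10 over the 10 other trophic factors, 0.04 over the 11 processing enzymes and 0.08 over the 36 signaling genes, beside 0.00 over all transcripts. In the fit on TH 0 of the 80 passed by edgeR and 9 had an unadjusted p under 0.05, which is 11.25% of them beside 6.53% of all transcripts. The lowest p were those of DOK6, an adaptor of RET, with a slope of 0.63 (SE 0.20; adjusted p = 0.284), and EGFR, at 0 in 22 animals. DOK6 had 0 counts in 8 animals, a median of 7.5 and 83 in heavy 2, the animal with the second highest TH.

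In the comparison of cohorts 1 of the 80 passed: SORCS2, a sortilin-like receptor that pairs with p75 to bind neurotrophin precursors. SORCS2 had 357 counts at the lowest, a median of 675 and 765 at the highest in the 8 controls of cohort 1, and 258, 401 and 649 in its 8 drinkers. In cohort 2 the 3 controls had 705, 774 and 873 counts and the 9 drinkers 477, 759 and 1030. The difference was 0.60 (SE 0.10; 95% interval 0.39 to 0.81; edgeR adjusted p = 0.027). In CPM the cohorts overlapped, with 13.4 to 32.8 in cohort 1 and 26.4 to 40.8 in cohort 2. With SORCS2, 10 of the 80 genes (12.5%) had an unadjusted p under 0.05, beside 9.8% of all transcripts, among them FURIN, which cleaves neurotrophin precursors, at 0.39 (SE 0.09; adjusted p = 0.114). Within cohort 1, drinkers lay at a median of 19.8 CPM of SORCS2 and controls at 28.2, and in cohort 2 at 34.4 and 33.7. The drinker effect was called in neither cohort (edgeR adjusted p = 0.208 in cohort 1). Its difference between cohorts was not called either (edgeR adjusted p = 0.377), with a p among the 3 lowest of the 80 genes. The fit of the cohort difference takes 1 drinker effect for both cohorts, and the SORCS2 call was not followed through the alternatives.

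**Figure D4:**
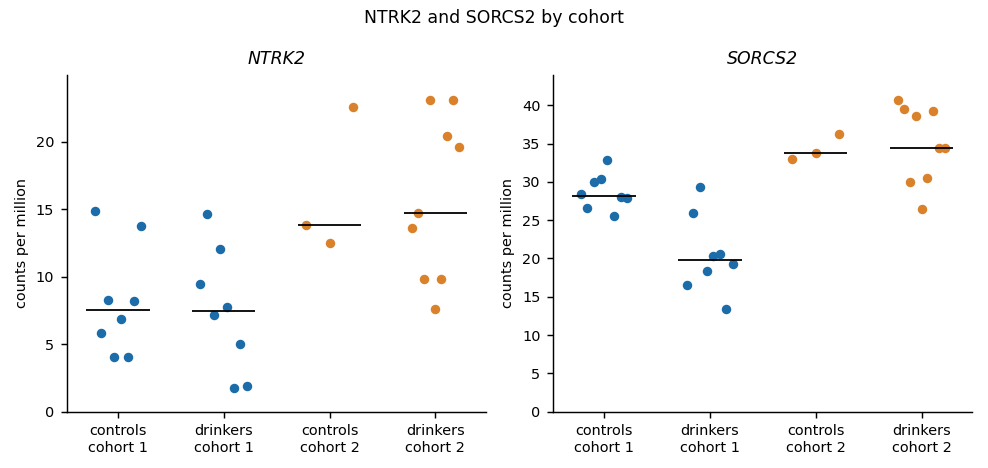
CPM of NTRK2 (left) and SORCS2 (right) in controls and drinkers of each cohort, 1 point per animal with the median as a black line. SORCS2 passed the adjusted threshold between cohorts and NTRK2 did not.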

How the data were processed

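VTA tissue of 28 male macaques was sequenced with 1 library per animal. The authors trimmed reads with Trim Galore 0.6.7 and ran Salmon 1.9.0 on the Mmul_10 assembly. The deposited values are Salmon's estimated counts, left unnormalized by the authors, with 1 transcript per gene symbol; they used DESeq2 1.36.0 for their own normalization. Of 16886 entries, 1 without a symbol (1.16e-05% of counts) was left out. Groups came from the labels and cohorts from the study's source data. All columns were assigned to an animal.

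Counts were rounded, and transcripts reaching 5 counts in 3 animals or more were tested with edgeR 4.0.16 (R 4.3.3; TMM, quasi-likelihood F-test, Benjamini-Hochberg over all transcripts tested, threshold 0.05); the alternatives included the Wald test of DESeq2 1.42.0, other scalings and filters, covariates and leaving out animals. Correlations used log2 CPM with a prior count of 2 and 100000 permutations (two-sided), and none was computed where values formed separate clusters, meaning a gap over 30% of the range with at least 3 animals on each side. Tested on simulated data, the fits made more false calls than the threshold sets, mostly among transcripts at 0 in most animals. Named were the 9 genes and TH, pathway genes past the threshold (otherwise the 2 with the lowest p in the drinker comparison and the TH fit), the 3 transcripts most like each tested gene, and the most counted marker of each cell type. The genes and lists were chosen with earlier results of these data known. FURIN, the dopamine neuron markers other than TH, and GAD1, CNP, AIF1 and C1QB were named after their values were seen. Some items that the rule names are not reported here. Each animal gave 1 sample, so p-values measure the spread between animals.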

Additional observations from a re-analysis of the deposited data

Results flagged for a closer look

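The GFRA1 count of very heavy 1 was 0, against 16 to 156 in the other 8 very heavy drinkers. Its gap to the nearest of them was 0.533 of the group's range in log2 CPM, above Dixon's 95% critical value of 0.493 for 9 samples. The place of a count of 0 on that scale is set by the prior count, and with variance stabilized counts, a scale chosen for this test after seeing the data, the gap was 0.343 of the range and below that value. It was 1 of 30 tests over 6 genes and 5 sets of animals, some shared between sets (controls of cohort 1, drinkers of each cohort, heavy and very heavy drinkers), and the others gave no such gap; chance gives about 1 in 20. The same animal had 28 NTRK2 counts, the lowest of all 28, and 25 GFRA2 counts, the highest. GFRA1 was at 0 in heavy 1 too, which lay within the limit for its own group. The counts of other GFRA1 transcripts were not analysed here.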

How the results depend on the processing

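No paired analysis was possible because the labels number no animals across groups. The call of RET on TH was kept under 9 alternatives over all animals (0.47 to 0.51; adjusted p 3.3e-27 to 5.15e-07), 6 in controls and 6 in drinkers. With DESeq2's Wald test 2 members were called on TH over all animals and in controls (RET and GFRA1; adjusted p 0.0224 for GFRA1 in controls), and 2 with SLC6A3 in place of TH (RET and GFRA2, which rests on 3 animals); 0 members were called in any group or cohort comparison under any alternative run. With that Wald test the counts over all transcripts moved to 8 in drinkers against controls, 230 in cohort 1, 22 in cohort 2, 152 for the difference between cohorts, 92 between cohorts, 50, 71 and 73 for very heavy against controls, heavy against controls and very heavy against heavy, and 230, 85 and 49 for the TH slope in controls, in drinkers and the difference of these slopes. Without the filter they were 3 in cohort 1, 137 for TH and 46 for the slope difference; with at least 10 counts in every animal 2 in cohort 1, 10 between cohorts, 33 for TH and 11 in drinkers. With TH as a covariate they were 2 in cohort 1 and 13 between cohorts, with DESeq2 size factors 3 between cohorts, without the cohort term 43 for TH in drinkers, and 8 without mitochondrial transcripts and 6 with cohort for the slope difference. Leaving out 1 animal gave 0 to 1 in cohort 2 (1 without control 11), 0 to 4 for the difference between cohorts and 0 to 1 for heavy against controls (1 without heavy 4). The causes were not tested.

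Signs turned only where no call was made. NTRK2 became -0.10 for drinkers against controls with cohort, 0.26 for very heavy against controls and 0.23 against heavy without the cohort term; GFRA1 became -0.28 in cohort 1 and BDNF 0.01 between cohorts with TH as a covariate. Leaving out 1 animal moved cohort 2 values to between -1.13 and 0.53 (RET), -1.1 and 0.07 (GFRA1) and -0.21 and 0.26 (NTRK2), the difference between cohorts to between -0.8 and 0.86 (RET), -1.13 and 0.04 (GFRA1) and -0.08 and 0.39 (NTRK2, also -0.02), heavy against controls to between -0.55 and 0.27 (NGFR), and very heavy against heavy to between -0.11 and 0.25 (NTRK3), -0.06 and 0.78 (NGFR) and -0.4 and 0.94 (RET). Correlations with TH near 0 turned for NTRK2 in controls (-0.0303 with variance stabilized counts, -0.0432 as a partial correlation), BDNF in drinkers (0.122) and NGFR in cohort 1 (-0.00625, -0.00432 and -0.0111). GFRA1 lost its call in drinkers with a prior count of 0.5 (r = 0.533, adjusted permutation p = 0.111) and gained one in cohort 1 with variance stabilized counts (r = 0.711, adjusted permutation p = 0.00744). Counts of GDNF, NTF3, GFRA2 and BDNF were low, and 1 transcript of each was counted. The part of depth and of the choice of transcript in these low counts was not tested.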
